A study of Mus musculus with 24 samples.

Results

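The nuclear genes for the respiratory chain and the ATP synthase were followed in the livers of male mice given a sugar drink, a high-fat diet, both or neither. The genes were taken by symbol: those starting with Nduf, Uqcr, Atp5, or Cox followed by a digit from 4 to 8, together with Sdha, Sdhb, Sdhc, Sdhd and Cyc1. The rule found 88 of the 19057 genes that the array annotation names, read by 136 probes, and 81 of them rose above the noise limit on enough arrays to be tested. The 81 comprised 35 of 36 genes named for complex I, 7 of 8 complex I assembly factors of the Ndufaf series, 2 of 4 of complex II, all 8 of complex III, 13 of 16 of complex IV and all 16 of complex V, the ATP synthase. Ndufs1, Ndufaf6, Sdha, Sdhd, Cox4i2, Cox7b2 and Cox8c were not measurable by that filter. All 81 measured genes lie on nuclear chromosomes in the RefSeq gene table. The symbols do not mark subunits alone: the Ndufaf proteins help to build complex I and leave it, Ndufa4 is now counted as a complex IV subunit, Cox7a2l joins complexes into supercomplexes, and Ndufs5-ps is annotated as a pseudogene of Ndufs5, so whether its probe read the parent transcript cannot be told.

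The respiratory chain passes electrons from NADH (complex I) and succinate (complex II) through complex III to oxygen at complex IV, and the protons pumped on the way drive the ATP synthase. Nearly all of its subunits are encoded in the nucleus, made in the cytosol and imported, and they are assembled around a small set of subunits encoded by mitochondrial DNA. In liver the chain oxidises the NADH and reduced flavins that come from fatty acid oxidation and the citric acid cycle.

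Liver RNA was hybridised to Illumina bead arrays in 4 groups of 6 samples from C57BL/6J males aged 16 weeks, after 10 weeks of feeding. High-fat high-sugar mice had a high-fat diet and a 23% (w/v) sugar drink, high-sugar mice a normal diet and the same drink, high-fat mice a high-fat diet and plain water, and control mice a normal diet and plain water. Samples are numbered within a group, and nothing in the labels ties a number to one animal; the spread behind each p-value is therefore that among the 24 samples, which may be technical. The labels name no transgene or engineered deletion, which does not exclude variants that the strain itself carries. In C57BL/6 mice the Cox7a2l protein is a shortened form. The study asked how sugar and fat intake, alone and together, alter gene expression in the liver. Values below are normalised intensities in arbitrary units, log2 changes are of intensity plus an offset of 32 and carry the standard error of the limma fit (n = 6 per group), and a gene is said to have risen or fallen where its Benjamini-Hochberg adjusted p over 11115 genes was under 0.05.

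The samples of a group correlated with each other at 0.987 to 0.996 over all measured genes, and samples of different groups at 0.974 to 0.992. Of 7 hepatocyte markers 6 were measured. Their summed intensity was 38900 to 44170 in high-fat high-sugar and 43860 to 51180 in high-sugar livers. It was 40050 to 44170 in high-fat and 42400 to 47890 in control livers. The single markers moved: Alb, Ttr and Serpina1a rose with sugar on the normal diet (by 0.96, 0.50 and 0.93) and Cps1 fell by 0.38, and Ttr and Serpina1a rose and Cps1 fell on the high-fat diet. The 6 sinusoidal endothelial markers summed to 4688 to 5956 in high-fat high-sugar, 5027 to 6429 in high-sugar, 5112 to 6211 in high-fat and 3996 to 5158 in control livers. Of 7 macrophage and Kupffer cell markers 5 were measured, and 4 of them rose in high-fat against control livers, where their sums were 1926 to 3239 and 1866 to 2177. Stellate cell and fibroblast markers, 5 of 7 measured, summed to 390.1 to 1677 in high-fat high-sugar livers and to 279.8 to 707.4 in the other groups. A single library stood apart: high-fat high-sugar replicate 4 had a summed intensity of 11740 over the 11 probes of 7 skeletal and heart muscle markers, with Acta1, Myl1, Ckm and Tnnt3 above the noise limit and Myh1, Myh4 and Myh6 not. High-fat replicate 4 had a sum of 58.6, with 3 of the 7 markers above the noise limit, and in the other 22 libraries the sum was negative. For the exocrine pancreas markers, 2 of 5 were measured (Cela1 and Amy2a5), and their summed intensity was 4144 to 5966 in high-fat high-sugar livers and 5347 to 6259 in high-sugar livers, against 2649 to 3256 in high-fat livers and 3414 to 3937 in control livers. The part of these markers in the results for the respiratory chain was not tested, except where a value without high-fat high-sugar replicate 4 is given. In whole tissue, fewer cells of a type and less RNA per cell cannot be told apart.

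On the normal diet, the sugar drink lowered more respiratory chain genes than it raised. Of 81 genes, 28 fell and 12 rose in high-sugar against control livers, while among all genes tested 14.0% fell and 14.8% rose. The 28 that fell are 34.6% of the measured members, and the 12 that rose are 14.8%. The median change of the members was −0.14 on the log2 scale, against −0.01 for all genes. The changes were small: the median size among the 40 called members was 0.36 (1.28-fold), 3 reached 1.5-fold, and for 36 of the 40 the control mean had all 6 high-sugar samples on one side. Leaving out high-sugar replicate 2, in which many members lay lowest, left 20 falling and 13 rising, with 12.2% of all genes falling and a median of −0.12.

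On the high-fat diet the sugar drink gave a similar count. In high-fat high-sugar against high-fat livers, 25 of 81 members fell and 12 rose, against 14.0% and 16.6% of all genes, and the 25 are 30.9% of the members. The median change was −0.09, against −0.01 for all genes, and the median size among the 37 called members was 0.36 (1.29-fold). Without high-fat high-sugar replicate 2, 17 fell and 11 rose, with 12.6% of all genes falling and a median of −0.06. Without the library with muscle markers, 27 fell and 11 rose. These comparisons of the sugar drink share no samples, and 16 genes fell in both, which is 57.1% of those that fell on the normal diet and 64% of those that fell on the high-fat diet. Another 8 genes rose in both, 66.7% of each list, and 1 gene, Cox6b2, moved in opposite directions. The matching overlap among all genes was not counted, so whether it is particular to these members was not tested.

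**Figure D1:**
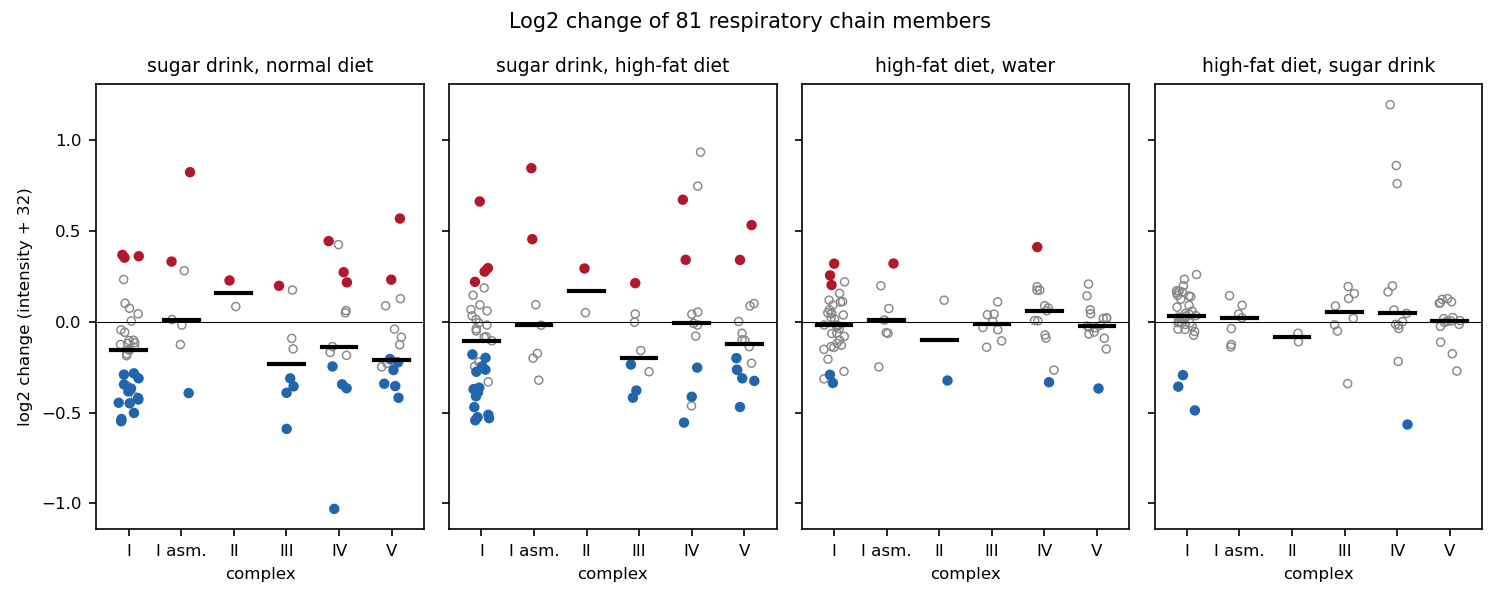
Log2 change of intensity plus 32 (vertical axis) for each of the 81 measured genes, by complex (I asm., complex I assembly factors) and in 4 comparisons, with genes that rose filled red, genes that fell filled blue, others open, and the median of each complex as a black bar. Blue points outnumber red ones in complexes I, III, IV and V in both sugar panels, and few points are filled in both fat panels; the open points high in complex IV with the sugar drink on the high-fat diet and with the high-fat diet on the sugar drink include Cox6a2 and Cox8b.

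Complex I, which takes electrons from NADH, held 13 of the genes that fell on the normal diet and 14 of those on the high-fat diet, against 3 and 4 that rose. Of its 35 measured genes 37.1% and 40% fell, against 14.0% of all genes on each diet. The shares that rose were 8.6% and 11.4%, against 14.8% and 16.6% of all genes. Ndufa11 encodes an accessory subunit of the membrane arm of complex I. Its intensity had a low of 1821, a median of 2525 and a high of 2937 in high-sugar livers, against 3152, 3523 and 3918 in control livers. With the high-fat diet it had a low of 2046, a median of 2455 and a high of 2973 in high-fat high-sugar livers, against 3239, 3558 and 3965 in high-fat livers. Neither pair of groups overlapped. Ndufa11 fell by 0.55 ± 0.10 on the normal diet (1.46-fold, adjusted p = 0.000211) and by 0.54 ± 0.10 on the high-fat diet (1.46-fold, adjusted p = 0.000186).

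Ndufa12, an accessory subunit at the base of the peripheral arm, behaved in the same way with sugar. It spanned 1833 to 2768 in high-sugar livers (median 2492), against 2877 to 3607 in control livers (median 3147), and 2369 to 3138 in high-fat high-sugar livers (median 2611), against 3601 to 4155 in high-fat livers (median 3778). The groups were separate in both comparisons, and the falls were 0.42 ± 0.09 (adjusted p = 0.000836) and 0.51 ± 0.09 (adjusted p = 8.41e-05). Ndufa5, a subunit of the arm that reduces ubiquinone, spanned 2897 to 5065 in high-sugar livers (median 4308), against 4559 to 6311 in control livers (median 5648). Its range was 3539 to 4995 in high-fat high-sugar livers (median 4321), against 5319 to 7710 in high-fat livers (median 5707). The groups overlapped on the normal diet and were separate on the high-fat diet, and Ndufa5 fell by 0.45 ± 0.12 (adjusted p = 0.00666) and by 0.53 ± 0.12 (adjusted p = 0.00162).

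Ndufb7, a membrane-arm subunit that faces the intermembrane space, spanned 277 to 479 in high-sugar livers (median 431), against 395 to 685 in control livers (median 508), and 311 to 459 in high-fat high-sugar livers (median 368), against 501 to 657 in high-fat livers (median 566). The groups overlapped on the normal diet only, and Ndufb7 fell by 0.35 ± 0.12 and 0.53 ± 0.12 (adjusted p = 0.0364 and 0.0017). Ndufa6, an accessory subunit of the LYR-motif family, fell by 0.45 ± 0.09 on the normal diet and by 0.26 ± 0.09 on the high-fat diet. Ndufc1, a small membrane subunit, fell by 0.43 ± 0.12 and 0.39 ± 0.12, and Ndufv3, a small subunit of the NADH-binding module, by 0.37 ± 0.11 on both diets. The probe annotated to Ndufs5-ps fell by 0.54 ± 0.13 and 0.41 ± 0.13.

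Other complex I genes passed on a single diet by their brightest probe. Ndufa7 fell on the normal diet (−0.50 ± 0.13, adjusted p = 0.00573) and had −0.25 ± 0.13 on the high-fat diet (adjusted p = 0.169). Ndufa8 had −0.16 ± 0.06 on the normal diet (adjusted p = 0.0684) and fell by 0.36 ± 0.06 on the high-fat diet (adjusted p = 0.000101). Ndufab1, the mitochondrial acyl carrier protein, had −0.12 ± 0.07 on the normal diet and fell by 0.28 ± 0.07 on the high-fat diet, where its 6 samples of each group did not overlap. Ndufa3 had −0.41 ± 0.17 on the normal diet (adjusted p = 0.0729) and fell by 0.47 ± 0.17 on the high-fat diet. No interaction test passed for these 4 genes (adjusted p from 0.227 to 0.933), so a difference between the diets was not shown. Another probe of 3 of these genes fell on both diets, with p adjusted over the 20216 probes. That of Ndufa8 fell by 0.37 and 0.44 (adjusted p = 0.000405 and 3.97e-05), that of Ndufab1 by 0.32 and 0.58 (adjusted p = 0.00331 and 3.31e-06), and that of Ndufa3 by 0.58 and 0.49 (adjusted p = 0.00825 and 0.0241). A further probe of Ndufab1 had −0.31 and −0.24 and did not pass (adjusted p = 0.225 and 0.353).

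Genes of the core were counted apart from all other members outside the Ndufaf series. The core, as listed here, holds the conserved core subunits of complex I, the subunits of complex II, cytochrome c1 and the iron-sulphur protein of complex III, and the alpha, beta and gamma subunits of the ATP synthase, and 12 of its 16 genes were measured. Ndufv1, which carries the flavin that accepts electrons from NADH, had a median of 5234 in high-sugar livers, against 5257 in control livers, and of 5253 in high-fat high-sugar livers, against 5268 in high-fat livers. All 4 groups of Ndufv1 overlapped, and its log2 changes were 0.00 ± 0.07 and −0.02 ± 0.07. In the core, 1 of 12 genes fell and 1 rose on the normal diet, and 4 fell and 2 rose on the high-fat diet. The 4 include Atp5a1, which is dim and has probes that disagree, and Uqcrfs1 of the core was not above noise in some samples of every group. Of the 62 other members, 26 fell and 9 rose on the normal diet, and 21 fell and 8 rose on the high-fat diet. On the high-fat diet the shares that fell were thus alike in the core and in the other members. Among all genes 14.0% fell and 14.8% rose on the normal diet, and 14.0% and 16.6% on the high-fat diet. The 62 hold accessory subunits, but also the ring subunits of the ATP synthase, Ndufs5-ps and muscle and testis forms. The median changes were −0.07 in the core and −0.19 in the other members on the normal diet, and −0.03 and −0.10 on the high-fat diet. The difference between these classes was not tested. Among the core genes of complex I, Ndufs7 and Ndufv2 fell on the high-fat diet (−0.18 ± 0.07 and −0.20 ± 0.06), and Ndufs3 rose there (0.22 ± 0.07, adjusted p = 0.0183).

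Apart from Ndufs3, at a mean intensity of 1531, the complex I genes that rose with sugar (Ndufb4, Ndufb5, Ndufb9 and Ndufb10) had mean intensities of 102 or less. Ndufb4 passed the noise filter only through its high-sugar samples, so its rise is not independent of the filter. Ndufb10, which encodes a subunit of the membrane arm, spanned 94.0 to 144 in high-sugar livers (median 133), against 72.5 to 128 in control livers (median 84.2), and 95.9 to 173 in high-fat high-sugar livers (median 127), against 53.8 to 103 in high-fat livers (median 60.0). The ranges overlapped on both diets, and Ndufb10 rose by 0.35 ± 0.12 (adjusted p = 0.0341) and by 0.66 ± 0.12 (adjusted p = 0.000193). With the mean of its probes in place of the brightest one, the rise on the normal diet did not pass (0.22, adjusted p = 0.117). Ndufb9, a subunit of the LYR-motif family, spanned 21.5 to 34.0 in high-sugar livers (median 26.6), against 10.7 to 19.1 in control livers (median 13.8). It ran from 5.46 to 27.2 in high-fat high-sugar livers (median 11.02), against 4.24 to 10.3 in high-fat livers (median 5.08). It rose by 0.36 ± 0.09 on the normal diet. On the high-fat diet it passed as higher (adjusted p = 0.0137), and no fold is given, as 5 of 6 high-fat samples were under the noise limit of 6.50 to 6.52.

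Ndufaf1 had the smallest adjusted p of all members in both sugar comparisons. It encodes a factor needed to build the membrane arm of complex I. Its intensity was 233, 252 and 321 at the lowest, median and highest of the high-sugar livers, against 113, 130 and 156 in control livers. It was 183, 234 and 356 in high-fat high-sugar livers, against 116, 124 and 146 in high-fat livers. Every sample with the sugar drink lay above every sample with plain water. The rise was 0.82 ± 0.11 on the normal diet (1.77-fold, adjusted p = 6.08e-06) and 0.84 ± 0.11 on the high-fat diet (1.80-fold, adjusted p = 2.84e-06). Ndufaf2, an assembly factor related to Ndufa12, rose by 0.33 ± 0.11 and 0.45 ± 0.11 at intensities no higher than 44.9.

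Complex II, which oxidises succinate in the citric acid cycle and hands the electrons to ubiquinone, was represented by Sdhb and Sdhc. Sdhb, the iron-sulphur subunit, spanned 501 to 685 in high-fat high-sugar livers (median 609), against 406 to 634 in high-fat livers (median 472), and rose by 0.29 ± 0.09 (adjusted p = 0.0194). On the normal diet it spanned 594 to 735 in high-sugar livers (median 646), against 539 to 690 in control livers (median 636), a change of 0.08 ± 0.09 (adjusted p = 0.552). Sdhc, a membrane anchor, spanned 4321 to 4695 in high-sugar livers (median 4487), all above the 3675 to 3896 of control livers (median 3825). Sdhc rose by 0.23 ± 0.06 on the normal diet (adjusted p = 0.00441) and had 0.05 ± 0.06 on the high-fat diet (adjusted p = 0.569).

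Complex III moves electrons from ubiquinol to cytochrome c, and 4 of its 8 genes fell on the normal diet and 3 on the high-fat diet. These are 50% and 37.5%, against 14.0% of all genes on each diet. On each diet 1 gene rose (12.5%), against 14.8% and 16.6% of all genes. Cyc1 encodes cytochrome c1, the subunit that hands the electrons on. It spanned 3230 to 4447 in high-sugar livers (median 3785), against 4540 to 5253 in control livers (median 4756), and 3198 to 4201 in high-fat high-sugar livers (median 4022), against 4569 to 5456 in high-fat livers (median 4917). Neither pair overlapped, and Cyc1 fell by 0.36 ± 0.08 (adjusted p = 0.00172) and 0.38 ± 0.08 (adjusted p = 0.000851). Uqcr11, the smallest subunit, spanned 4106 to 8310 in high-sugar livers (median 7006), against 7840 to 11755 in control livers (median 9384), and 5232 to 7940 in high-fat high-sugar livers (median 7261), against 7912 to 9925 in high-fat livers (median 9521). Both pairs overlapped narrowly. Uqcr11 fell by 0.59 ± 0.13 on the normal diet (adjusted p = 0.00144) and by 0.42 ± 0.13 on the high-fat diet (adjusted p = 0.0181). Uqcr10 fell in both comparisons (−0.39 ± 0.09 and −0.24 ± 0.09), while Uqcrc2, a core protein of the complex, rose in both (0.20 ± 0.07 and 0.21 ± 0.07).

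Complex IV, cytochrome c oxidase, carries several subunits in liver and in muscle forms. Cox5b, a zinc-binding subunit, spanned 9567 to 11870 in high-sugar livers (median 11398), against 11956 to 14593 in control livers (median 13050), with no overlap. It spanned 9729 to 12050 in high-fat high-sugar livers (median 11040), against 11835 to 14524 in high-fat livers (median 12974), and fell by 0.25 ± 0.07 on both diets (adjusted p = 0.00665 and 0.00496). Cox7a2l, whose protein is a shortened form in C57BL/6 mice, spanned 1418 to 2281 in high-sugar livers (median 1823), against 2034 to 2922 in control livers (median 2307). It ranged between 1440 and 2201 in high-fat high-sugar livers (median 1719), below the 2396 to 2967 of high-fat livers (median 2579). It fell by 0.34 ± 0.10 (adjusted p = 0.0134) and 0.56 ± 0.10 (adjusted p = 0.000172). Cox6b1, the ubiquitous form of its subunit, fell by 0.37 ± 0.08 on the normal diet and had −0.08 ± 0.08 on the high-fat diet, while its other probe fell by 0.40 and 0.41 (adjusted p = 0.00191 and 0.00123 over all probes). Cox6c had 0.42 ± 0.19 on the normal diet (adjusted p = 0.0934) and rose by 0.67 ± 0.19 on the high-fat diet. Cox7a2, the form of subunit VIIa found in liver, spanned 9.65 to 22.6 in high-sugar livers, against −2.61 to 8.27 in control livers, and 7.998 to 28.7 in high-fat high-sugar livers, against 1.62 to 10.1 in high-fat livers. It passed as higher on both diets (adjusted p = 0.000676 and 0.0062), but 5 of 6 control samples and 3 of 6 high-fat samples were not above noise, so no fold is given. With a floor of 16 neither rise passed (0.15 and 0.21, adjusted p = 0.397 and 0.209).

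Complex V makes ATP, and more of its genes fell than rose. Atp5g2 and Atp5g3 encode the same ring subunit with different import signals. Atp5g2 spanned 965 to 1426 in high-sugar livers (median 1319), against 1421 to 1798 in control livers (median 1603), and fell by 0.34 ± 0.09 (adjusted p = 0.0047). It spanned 1055 to 1456 in high-fat high-sugar livers (median 1259), against 1422 to 1712 in high-fat livers (median 1571), and fell by 0.31 ± 0.09 (adjusted p = 0.00852). Atp5g3 went the other way. It spanned 15716 to 19596 in high-sugar livers (median 17312), against 13925 to 16569 in control livers (median 14554), and 17095 to 22572 in high-fat high-sugar livers (median 18160), against 14151 to 16693 in high-fat livers (median 14619). The groups were separate on the high-fat diet, and Atp5g3 rose by 0.23 ± 0.07 (adjusted p = 0.0153) and 0.34 ± 0.07 (adjusted p = 0.000607).

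Atp5h, a subunit of the peripheral stalk, spanned 435 to 839 in high-sugar livers (median 634), against 313 to 505 in control livers (median 390), and 429 to 847 in high-fat high-sugar livers (median 631), against 345 to 501 in high-fat livers (median 386). The ranges overlapped, and Atp5h rose by 0.57 ± 0.15 (adjusted p = 0.00518) and 0.53 ± 0.15 (adjusted p = 0.00769). Atp5d, of the central stalk, and Atp5j, of the peripheral stalk, fell in both comparisons (Atp5d by 0.22 ± 0.07 and 0.26 ± 0.07, Atp5j by 0.21 ± 0.07 and 0.20 ± 0.07). Without high-fat high-sugar replicate 2 the fall of Atp5j on the high-fat diet did not pass (−0.13, adjusted p = 0.129). Atp5b, the catalytic subunit, had changes of 0.09 ± 0.05 in both (adjusted p = 0.18 and 0.181). Counted over complex V, 6 fell and 2 rose on the normal diet, and 5 fell and 2 rose on the high-fat diet. The shares that fell were 37.5% and 31.2%, against 14.0% of all genes on each diet. The share that rose was 12.5% on each diet, under the 14.8% and 16.6% of all genes.

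**Figure D2:**
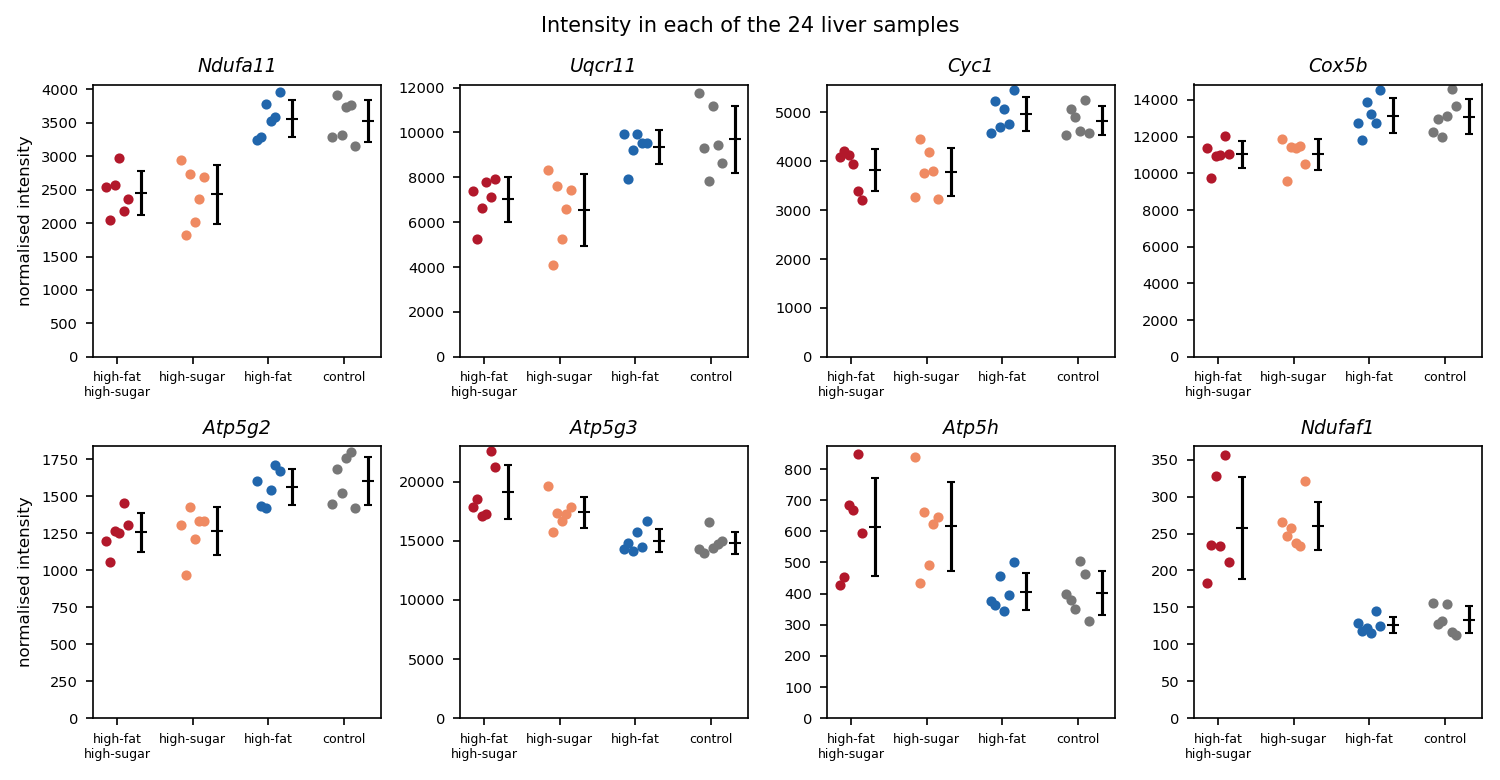
Normalised intensity of 8 genes in each of the 24 samples (points), with the mean and SD of each group of 6 beside them; every vertical axis starts at 0. Ndufa11 and Cyc1 are lower in every sample with the sugar drink than in any sample with plain water on the same diet, and Ndufaf1 is higher.

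**Figure D3:**
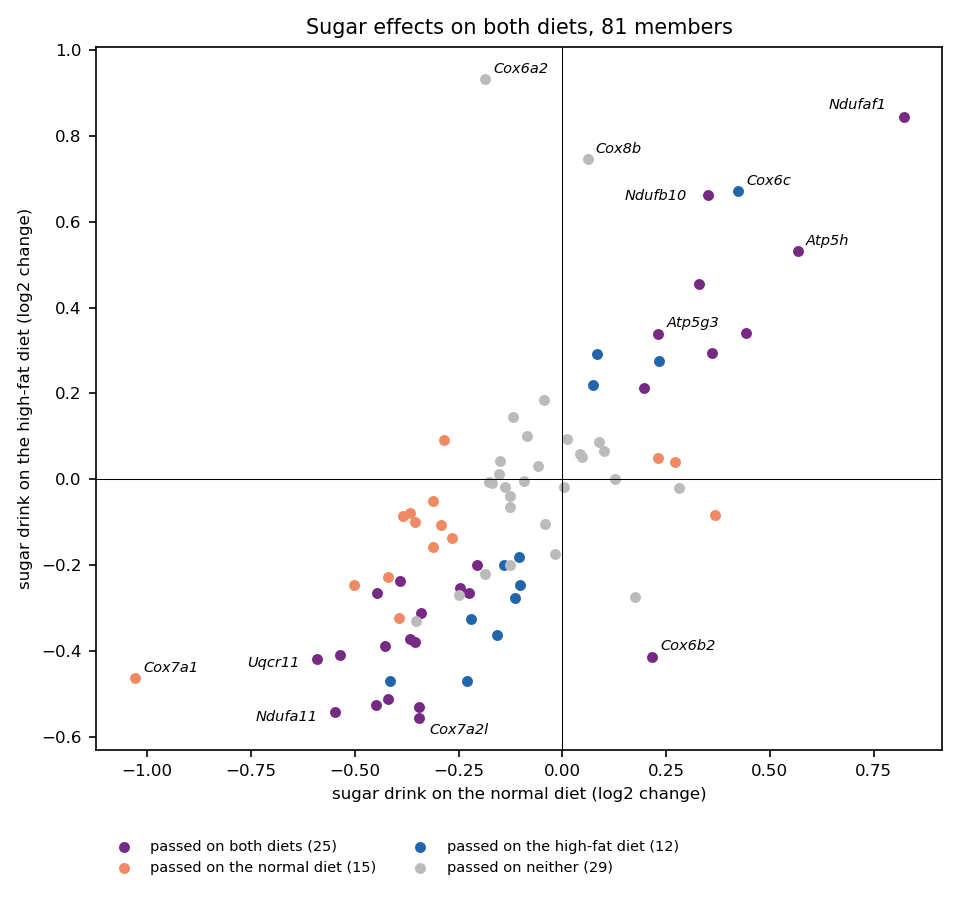
Log2 change between sugar drink and plain water, on the normal diet (horizontal axis) and on the high-fat diet (vertical axis), for the 81 genes, coloured by where they passed. The 25 genes that passed on both diets lie at the lower left (16) or the upper right (8), apart from Cox6b2; Cox6a2 and Cox8b lie high, at 0.93 and 0.75 on the high-fat diet with all libraries and at 0.02 and −0.05 without high-fat high-sugar replicate 4.

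Ranges without overlap give a count that does not depend on the fit. In high-sugar against control livers, 5 of 81 members were lower and 4 higher in all 6 samples than in any of the other 6, against 4.55% and 7.47% of all genes. These counts lie near the shares of all genes, so the excess of falls on the normal diet barely shows in them. On the high-fat diet, 15 of 81 members were lower and 3 higher, against 5.44% and 8.09% of all genes. Members also differed by brightness, in a split chosen after the values were seen. Of the 52 with a mean intensity of 1000 or more, 25 fell and 3 rose on the normal diet and 22 fell and 3 rose on the high-fat diet. Among all 1331 genes that bright, 15.7% fell and 17.9% rose on the normal diet, and 19.5% and 21.2% on the high-fat diet. Of the 29 dimmer members 3 fell and 9 rose in each comparison. Among all 9784 genes that dim, 13.8% fell and 14.4% rose on the normal diet, and 13.3% and 15.9% on the high-fat diet.

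The promoters of genes that moved in opposite directions are shown to let the letters be compared. RefSeq's table for GRCm38.p6 holds promoters of 72 of the 88 genes, each from 250 bases before to 50 bases after the start. Ndufa11 (chr17:56717512-56717811, plus strand) and Uqcr11 (chr10:80406772-80407071, minus strand) stand for the genes that fell in both comparisons, and Ndufaf1 (chr2:119662785-119663084, minus strand) and Atp5h (chr11:115419870-115420169, minus strand) for those that rose. Capitals mark matches to a core of NRF1, GCATGCGC, or of the ETS factor GABPA, CCGGAAG, on either strand; both factors are known regulators of respiratory chain genes.
Ndufa11: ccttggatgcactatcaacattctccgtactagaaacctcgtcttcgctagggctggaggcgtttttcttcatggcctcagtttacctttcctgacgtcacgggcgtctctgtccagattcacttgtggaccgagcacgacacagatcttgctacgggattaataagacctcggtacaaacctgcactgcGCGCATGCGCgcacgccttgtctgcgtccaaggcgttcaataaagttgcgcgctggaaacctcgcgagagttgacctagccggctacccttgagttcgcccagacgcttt
Uqcr11: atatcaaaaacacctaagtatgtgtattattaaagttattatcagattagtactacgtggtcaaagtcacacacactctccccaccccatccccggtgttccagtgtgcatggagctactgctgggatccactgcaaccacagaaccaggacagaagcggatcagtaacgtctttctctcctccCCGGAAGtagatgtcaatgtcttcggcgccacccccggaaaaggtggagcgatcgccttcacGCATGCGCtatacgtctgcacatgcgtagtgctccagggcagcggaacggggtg
Ndufaf1: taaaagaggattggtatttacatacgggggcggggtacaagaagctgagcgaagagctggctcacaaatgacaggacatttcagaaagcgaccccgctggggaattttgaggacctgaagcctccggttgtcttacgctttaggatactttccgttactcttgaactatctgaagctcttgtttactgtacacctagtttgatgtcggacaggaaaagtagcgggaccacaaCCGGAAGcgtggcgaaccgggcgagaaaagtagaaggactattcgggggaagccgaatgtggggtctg
Atp5h: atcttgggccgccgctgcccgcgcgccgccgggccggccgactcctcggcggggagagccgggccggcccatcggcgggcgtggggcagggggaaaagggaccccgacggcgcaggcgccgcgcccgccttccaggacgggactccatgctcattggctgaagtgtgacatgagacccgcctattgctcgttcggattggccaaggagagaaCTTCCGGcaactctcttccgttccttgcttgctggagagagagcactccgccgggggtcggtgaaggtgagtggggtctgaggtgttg
Ndufa11 carries the NRF1 core on both strands, in matches that overlap each other, Uqcr11 carries both cores, and Ndufaf1 and Atp5h carry the ETS core. The NRF1 core is present in the promoters of 12 of 72 members (16.7%), against 3.05% of all genes in the table. The ETS core is present in 18 of 72 members, against 9.93% of all genes, and a further motif, the YY1 core AAGATGGC, in 11 members (15.3%), against 3.19%. Of the genes that fell in both comparisons and have a promoter in the table, 4 of 14 hold the NRF1 core, 3 the ETS core and 2 the YY1 core, and of the 6 that rose in both, 2 hold the ETS core. These are letter matches in one window and not measured binding.

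The high-fat diet changed few of these genes. In high-fat against control livers, 5 of 81 rose and 5 fell, against 9.07% and 8.81% of all genes, with a median change of 0.00 for the members and for all genes. Ndufab1 spanned 6735 to 8672 in high-fat livers (median 7077), above the 5418 to 6592 of control livers (median 5911), and rose by 0.32 ± 0.07 (adjusted p = 0.00212). Ndufa12 and Ndufa8 rose by 0.25 ± 0.09 and 0.20 ± 0.06, Ndufaf7, a methyltransferase that acts on a complex I subunit, by 0.32 ± 0.11, and Cox6b2 by 0.41 ± 0.08. Sdhb fell by 0.32 ± 0.09: it spanned 406 to 634 in high-fat livers (median 472), against 539 to 690 in control livers (median 636). The other genes that fell, Ndufb5, Ndufb9, Cox7b and Atp5e, had group medians of 34.3 or less.

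With the sugar drink in both groups, the high-fat diet lowered 4 genes and raised 0 by limma, against 3.53% and 4.35% of all genes; at an unadjusted p under 0.05, 7 members were higher and 7 lower, against 12.1% and 9.26% of all genes. The 4 were Cox7b, Ndufb4, Ndufb9 and Ndufb5. Ndufb4 was above noise in all 6 high-sugar samples. It was not above noise in 6 high-fat high-sugar, 6 high-fat and 5 of 6 control samples. It therefore passed the filter only through the high-sugar group, and Cox7b also needed that group to pass. Their falls from that group are not independent of the filter. Cox7b, a complex IV subunit, spanned −1.97 to 7.91 in high-fat high-sugar livers (median 1.91), against 5.80 to 27.9 in high-sugar livers (median 19.8). Ndufb5, a membrane-arm subunit of complex I, spanned 19.6 to 42.1 in high-fat high-sugar livers (median 32.9), against 34.9 to 53.3 in high-sugar livers (median 44.7). All 4 are dim, and no fold is given where a group lies around the noise limit. The fat comparisons share no samples either, and 3 genes, Cox7b, Ndufb5 and Ndufb9, fell in both (60% of those that fell with water and 75% of those with the sugar drink). Here too the overlap among all genes was not counted. With values under 16 set to that floor, none of the 3 passed in both: with water Cox7b had −0.02 and Ndufb9 −0.05 (adjusted p = 1 and 0.989), and with the sugar drink Ndufb5 had −0.58 (adjusted p = 0.0713).

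The interaction, which sets the effect of the drink in the high-fat groups against its effect in the normal-diet groups, passed for 2 members (2.47%), the same share as of all genes (2.47%). Cox6b2, a form of subunit VIb best known from testis, spanned 6.09 to 12.6 in high-fat high-sugar livers (median 10.5), 10.6 to 21.5 in high-sugar livers (median 17.6), 14.0 to 35.0 in high-fat livers (median 24.1) and 8.36 to 11.2 in control livers (median 9.72). It rose with sugar on the normal diet (0.22 ± 0.08) and fell with sugar on the high-fat diet (−0.41 ± 0.08), an interaction of −0.63 ± 0.11 (adjusted p = 0.00172). With a floor of 16 the interaction of Cox6b2 did not pass. Ndufb4, a membrane-arm subunit, had medians of 1.69 in high-fat high-sugar livers, 13.2 in high-sugar livers, 1.52 in high-fat livers and 1.98 in control livers, of which 3 lay under the noise limit. Its interaction passed (adjusted p = 0.0406), but its size is set by the offset, and it did not pass with an offset of 16 (adjusted p = 0.0522) or with a floor of 16 (adjusted p = 0.683). Ndufb4 also passed the noise filter only through its high-sugar samples, so this interaction is not independent of the filter. Of the 1331 genes of mean intensity 1000 or more, 34 passed the interaction by limma (2.55%), and none of the 34 was a member.

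With both treatments, in high-fat high-sugar against control livers, 18 members fell and 7 rose, against 16.5% and 19.0% of all genes, and their median change was −0.12. Ndufa11 fell by 0.53 ± 0.10 and Ndufaf1 rose by 0.78 ± 0.11, and neither gene's groups overlapped. Atp5a1, which encodes the other large subunit of the catalytic head, spanned 12.2 to 31.2 in high-fat high-sugar livers (median 24.3), below the 31.5 to 58.9 of control livers (median 47.1), and fell by 0.50 ± 0.12. This probe is dim, and another probe of the gene went the opposite way with sugar on the high-fat diet, so its direction is unsettled. With the mean of its probes, Atp5a1 fell by 0.29 with both treatments (adjusted p = 0.00116 by limma). This comparison shares its samples with those above.

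Where a gene had several probes, the others could differ from the brightest. Of the 88 genes 35 had several probes, and 23 had several that passed the filter. On the normal diet 16 other probes belonged to genes called with sugar: 9 passed in the same direction, 4 did not pass and 3 passed in the opposite direction. The 3 were all of Ndufs4, a subunit needed for a stable NADH-binding module. Its brightest probe, of mean intensity 3886, fell by 0.29, and the other 3 rose by 0.55, 0.44 and 0.35. For the high-fat diet the 16 other probes divided into 8 that passed alike, 7 that did not pass and 1 that passed the opposite way. That probe read Atp5a1, whose brighter probe fell by 0.47 and whose other probe rose by 0.23, both at mean intensities under 40. Probes of Atp5pb passed in opposite directions with both treatments, where its brightest probe did not pass (−0.12, adjusted p = 0.405 by limma). With sugar on the high-fat diet that probe fell by 0.33, and the mean of its probes did not pass (−0.14, adjusted p = 0.224 by limma). Which transcripts these probes read was not tested, and the direction of Ndufs4, Atp5a1 and Atp5pb is therefore unsettled.

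The muscle forms of complex IV followed the library with muscle markers. Cox6a2 had 1812 in high-fat high-sugar replicate 4, and 5.82 to 15.5 in the other 5 samples of that group, against a highest value of 20.5 in high-fat livers. Cox8b had 959 in the same library and 0.52 to 15.1 in the other 5, and Acta1, skeletal muscle actin, had 6157. Neither Cox6a2 nor Cox8b passed in the sugar comparison on the high-fat diet (0.93 and 0.75, adjusted p = 0.226 and 0.268), and without that library their changes were 0.02 and −0.05. Cox7a1, the muscle form of subunit VIIa, was above noise in all groups. It spanned 50.5 to 159 in high-sugar livers (median 68.7), against 106 to 288 in control livers (median 199), and fell by 1.03 ± 0.35 (2.04-fold, adjusted p = 0.0257). It had 885 in high-fat high-sugar replicate 4 and 62.5 to 155 in the other 5, against 165 to 296 in high-fat livers. With all libraries its change there was −0.46 ± 0.35 (adjusted p = 0.334), and without replicate 4 it fell by 0.92 (adjusted p = 0.00248). The liver forms Cox4i1 and Cox6a1 did not pass in either sugar comparison (Cox4i1 −0.14 ± 0.07 and −0.02 ± 0.07, Cox6a1 −0.17 ± 0.09 and −0.01 ± 0.09).

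**Figure D4:**
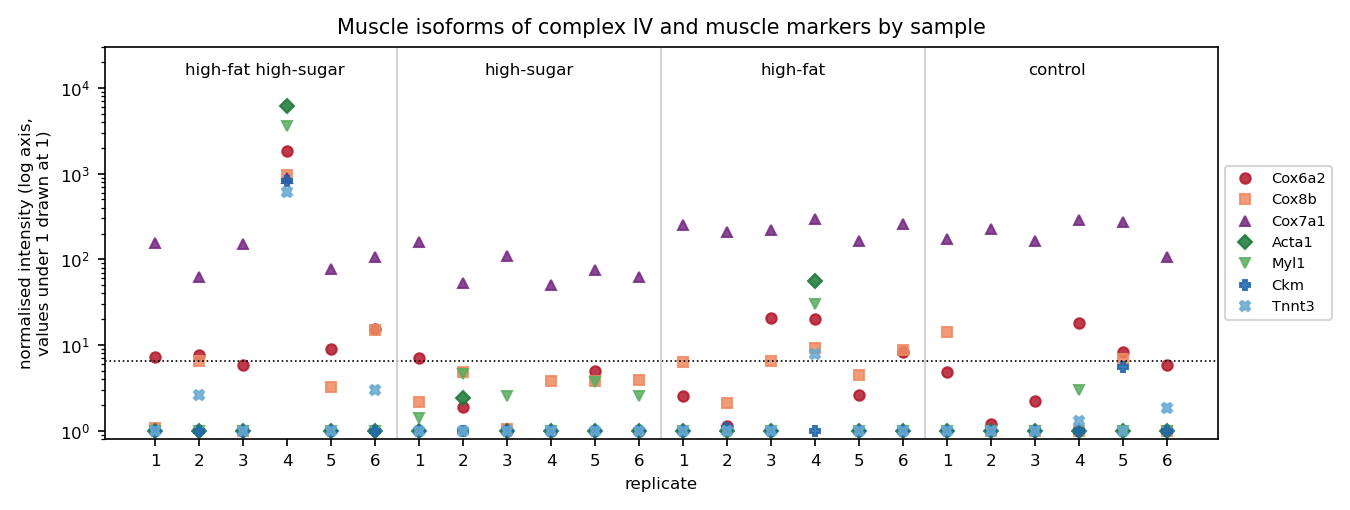
Normalised intensity (log axis, values under 1 drawn at 1) of 3 muscle forms of complex IV subunits and of 4 muscle markers in each library, with the noise limit dotted. High-fat high-sugar replicate 4 holds Cox6a2 at 1812, Cox8b at 959 and Acta1 at 6157, while Cox7a1 is above the noise limit in all 24 libraries.

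Within a group, many members were high or low together from sample to sample. The description uses deviations of each sample from its group mean for the 52 bright members, in 24 samples that share an array type and a normalisation, and it was made after the values were seen. The pairwise correlation had a median of 0.319 and ran from −0.789 to 0.962. With Uqcr11, chosen as the gene of complex III with the largest fall, 30 of the other 51 members correlated at 0.5 or more, among them Ndufa3 (0.925), Ndufv3 (0.916) and Ndufa1 (0.908), all small accessory subunits of complex I. Another 8 correlated at −0.4 or lower: Uqcrc2 (−0.789), Cyc1 (−0.677), Ndufv1 (−0.546), Cox7a2l, Atp5pb, Sdhc, Ndufa10 and Ndufa9. Averaged together with Uqcr11, the 30 lay farthest below their group mean in high-sugar replicate 2 (−0.40 on average, log2), high-fat high-sugar replicate 2 (−0.28) and high-sugar replicate 4 (−0.19), and farthest above it in high-sugar replicate 1 (0.27). Of the 30 without Uqcr11, 20 fell with sugar on the normal diet and 13 on the high-fat diet, and 0 rose on either. Of the 8, 2 fell and 2 rose on the normal diet and 3 fell and 1 rose on the high-fat diet. Among all 1331 genes that bright, 15.7% fell and 17.9% rose on the normal diet, and 19.5% and 21.2% on the high-fat diet. Cyc1 and Cox7a2l fell with sugar in group means, although they ran against Uqcr11 within groups. The difference between the sets was not tested.

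**Figure D5:**
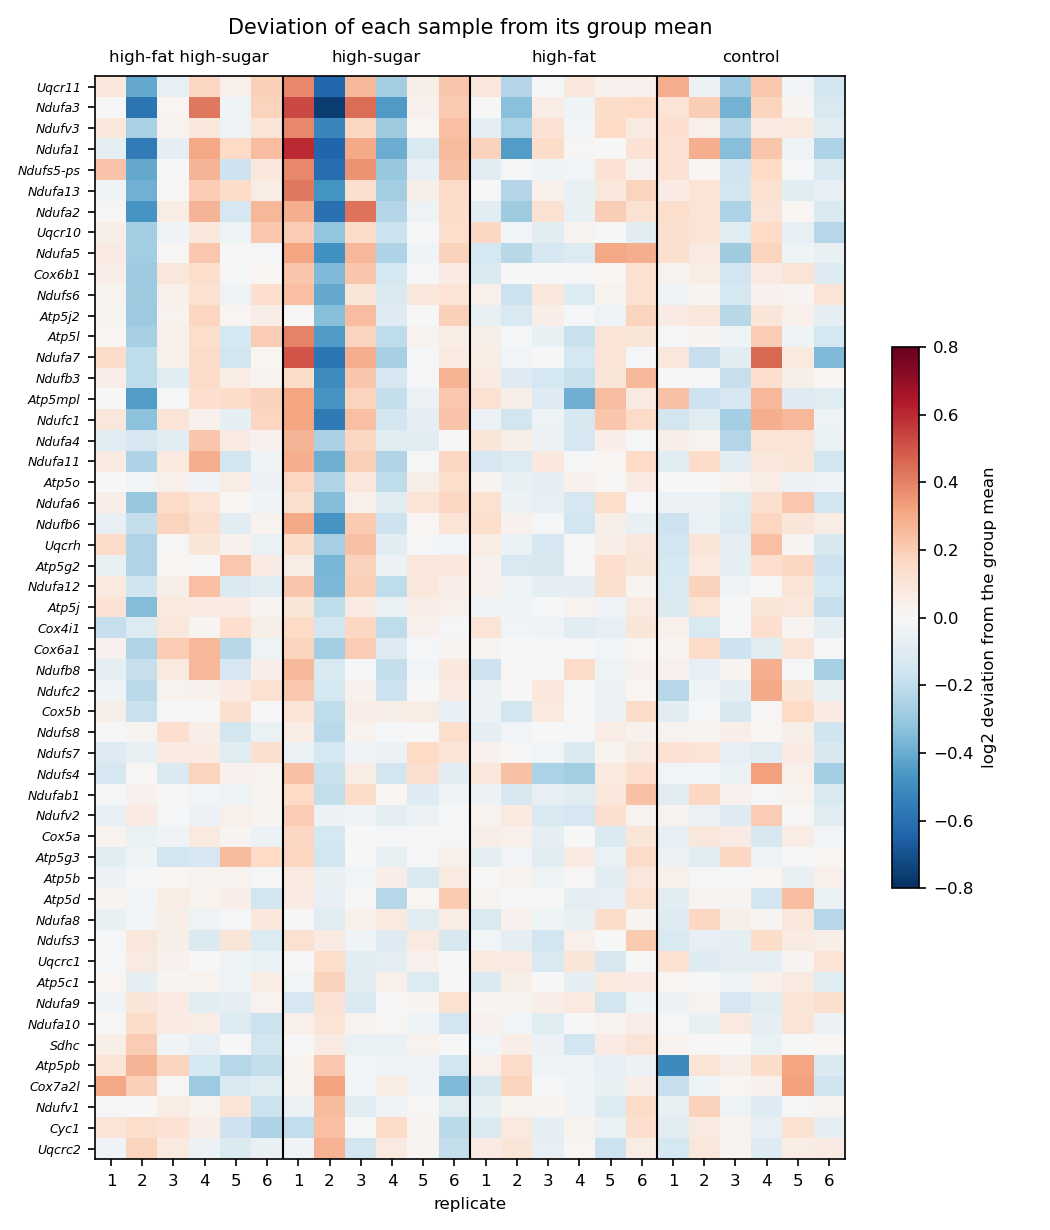
Deviation of each sample from its group mean (log2, colour) for the 52 genes of mean intensity 1000 or more (rows, ordered by their correlation with Uqcr11) in the 24 samples (columns). High-sugar replicate 2 is the lowest sample for the upper rows (mean −0.40 over Uqcr11 and 30 genes), while Cyc1 and Uqcrc2 at the bottom are high in it.

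Genes that serve the chain were counted from lists chosen with earlier results of these data known. Their counts stand against 14.8% of all genes that rose and 14.0% that fell with sugar on the normal diet, and 16.6% and 14.0% on the high-fat diet. Of 7 measured subunits encoded by mitochondrial DNA, 4 rose with sugar on the normal diet (57.1%), with a median change of 0.68. ATP6, a subunit of the ATP synthase, averaged 791 ± 91.6 in high-sugar livers, against 398 ± 66.5 in control livers (SD, n = 6), and rose by 0.94 ± 0.12. ND1 and COX2 rose there by 0.85 ± 0.14 and 0.68 ± 0.11. On the high-fat diet 2 of the 7 rose (ATP6 by 0.34 ± 0.12 and ND1 by 0.65 ± 0.14) and 1, ND4, fell by 0.16, with a median of −0.08. With the sugar drink in both groups the high-fat diet lowered 5 of the 7, against 3.53% of all genes, and the interaction passed for COX2 (−0.60 ± 0.16) and ND4L (−1.43 ± 0.19). ATP6 averaged 310 ± 88.8 in high-fat high-sugar livers, against 791 ± 91.6 in high-sugar livers.

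Of 17 regulators of mitochondrial biogenesis, 4 rose (23.5%) and 2 fell (11.8%) on the normal diet, and 3 rose and 3 fell (17.6% each) on the high-fat diet, shares that on the high-fat diet and among those that fell lie near those of all genes. Ppargc1a, a coactivator of respiratory chain genes, averaged 37.0 ± 2.97 in high-sugar livers, against 105 ± 32.1 in control livers, and 48.0 ± 14.5 in high-fat high-sugar livers, against 111 ± 30.5 in high-fat livers (SD, n = 6). It fell by 0.95 ± 0.15 and 0.83 ± 0.15. Esrra, a nuclear receptor that works with it, fell by 0.48 ± 0.07 and 0.31 ± 0.07, while Tfam, which packages and transcribes mitochondrial DNA, rose by 0.45 ± 0.10 and 0.43 ± 0.10. Ppargc1b fell with the high-fat diet (by 0.87 ± 0.16 with either drink).

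Of the other assembly factors of the complexes, 32 of 39 measured, 9 rose (28.1%) and 4 fell (12.5%) on the normal diet, and 10 rose (31.2%) and 5 fell (15.6%) on the high-fat diet, so the shares that fell lie near that of all genes. Ecsit, a partner of Ndufaf1 in building complex I, rose by 0.58 and 0.68, and Coa5, a complex IV factor, by 0.62 and 1.08. Cox14 fell by 0.35 and 0.34. Of 16 electron carriers and enzymes that feed the chain, 6 rose (37.5%) and 1 fell on the normal diet, and 4 rose and 2 fell (12.5%) on the high-fat diet. Coq2, of ubiquinone synthesis, rose by 0.77 ± 0.11 and 0.94 ± 0.11. Of 11 citric acid cycle genes, 3 rose (27.3%) and 1 fell (9.1%) on the normal diet, and 4 rose (36.4%) and 1 fell (9.1%) on the high-fat diet. Of 6 genes of adenine nucleotide and phosphate exchange, outer membrane pores and the ATP synthase inhibitor, 3 rose on each diet, among them Slc25a3, the phosphate carrier (0.73 ± 0.15 and 0.81 ± 0.15).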

How the data were processed

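Liver RNA was measured on Illumina bead arrays. Per the submitters' processing notes, the authors used GenomeStudio 2011.1. What they deposited is a probe intensity on a linear scale, and the values themselves show that it was background-subtracted (37.7% negative, lowest −13) and quantile normalised (sorted columns differ by at most 0.231). Of 45281 probes, 34885 have 1 symbol; 34807 of these symbols were checked by gene ID, and no member's symbol changed. A second deposited table has 48 columns of signal and detection p that could not be matched to samples and was not used here.

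A probe was kept when above 1.645 noise SD on at least 6 of 24 arrays, and the brightest probe stood for a gene (20216 probes, 11115 genes). With limma 3.58.1 in R 4.3.3, log2(intensity + 32) was fitted with 1 mean per group and an intensity trend, over all 24 samples. Tests were two-sided, with Benjamini-Hochberg adjusted p within each of 6 contrasts. The offset shrinks changes of dim genes, and precision is set by how many arrays there are. The fit was tested on simulated data. The members, the lists and the rule for named genes (largest changes, the smallest adjusted p per complex, discordant probes, complex II, Cyc1 and isoform pairs) were chosen with earlier results of these data known. Other genes were named after their values were seen. Alternatives were other offsets, a floor, other filters, probe averaging, cyclic loess, array weights, a replicate block and 3 left-out libraries.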

Additional observations from a re-analysis of the deposited data

Results flagged for a closer look

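In the 165 groups of 6 samples that were tested for a sample far from the rest, 8 were found, and chance gives about 1 in 20. Of these, 5 are muscle forms or markers in the samples numbered 4. In high-fat high-sugar replicate 4, Cox6a2 had 1812, Cox8b 958.9 and Cox7a1 885.4, and the 11 muscle marker probes summed to 11740. In high-fat replicate 4 these probes summed to 58.58. The remaining samples apart were Ndufaf1 in high-sugar replicate 6 (321.1, the highest of its group), Ndufb10 in high-fat replicate 6 (102.6, the highest) and Uqcr11 in high-fat replicate 2 (7912, the lowest).

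The sugar effect differed between the diets for Cox6b2, by −0.6292 on the log2 scale (adjusted p = 0.00172 by limma's interaction test), and for Ndufb4, by −0.4498 (adjusted p = 0.0406). Both genes are dim, and 3 of 4 group medians of Ndufb4 were under the noise limit, so its size is set by the offset: it was −0.81 with an offset of 16, −0.24 with 64 and −0.06 with a floor of 16. With that floor neither interaction passed. Ndufb4 also passed the noise filter only through its high-sugar samples.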

How the results depend on the processing

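The counts of respiratory chain genes that rose or fell with sugar on either diet, and with both treatments, stayed within 1.5 times under every alternative tried. Every median moved by less than the spread between replicates (0.0966). That bound exceeds the median itself for sugar on the high-fat diet (−0.0865), the high-fat diet with water (0.0014) or sugar (0.021) and the interaction (0.0221). For these 4 medians the check could not have shown the loss of an effect. The smaller counts moved. For the high-fat diet with water, 5 rose: 3 did with a floor of 16, 2 with no filter on dim probes and 3 with the replicate block. Of the 5 that fell there, 2 did with the floor and 3 among genes above noise on at least 18 arrays. For the high-fat diet with the sugar drink, 4 fell, against 2 with the floor and 2 on at least 18 arrays. For the interaction, 2 fell, against 0 with the floor and 1 with an offset of 16, no filter, 18 arrays, the replicate block, or without high-fat high-sugar replicate 4 or replicate 2. The cause was not tested. Of 118 gene and comparison pairs that passed, 24 no longer did with the floor, 17 with no filter, 10 with the mean of a gene's probes, 7 with array weights, 5 with the replicate block, 20 without high-fat high-sugar replicate 2, 9 without high-sugar replicate 2 and 3 without high-fat high-sugar replicate 4. Ndufs4 on the normal diet changed sign with the mean of its probes (0.2616). Nothing in the labels says whether equal replicate numbers pair samples. Deviations of same-numbered samples from their group means correlated at −0.2746 to 0.2859 between groups, which cannot settle it. The left-out libraries were chosen after the data were seen.

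Values of genes around the noise limit, such as Cox7a2, Cox7b, Ndufb4, Ndufb9 and Cox6b2, move with the offset: the interaction of Cox6b2 was −0.95 with an offset of 16 and −0.38 with 64.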

Other observations

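Ribosomal proteins, which like the respiratory chain subunits form large complexes, were counted in the same way, against 14.8% of all genes that rose and 14.0% that fell with sugar on the normal diet and 16.6% and 14.0% on the high-fat diet. Of 70 mitochondrial ribosomal proteins measured, 17 fell (24.3%) and 14 rose (20%) on the normal diet and 17 fell and 12 rose (17.1%) on the high-fat diet, with median log2 changes of −0.02 and −0.09. Of 53 cytosolic ribosomal proteins, 20 fell (37.7%) and 2 rose (3.8%) on the normal diet and 11 fell (20.8%) and 8 rose (15.1%) on the high-fat diet, with medians of −0.18 and −0.10.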
